A study of Macaca mulatta with 12 samples.

Results

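TRBV6 is a family of variable gene segments of the T cell receptor beta chain (TRB). In the clone tables of rhesus macaque (Macaca mulatta) blood, its members were taken to be the rows whose first listed V gene hit had a name beginning with TRBV6-, one row being one clonotype, that is, one CDR3 nucleotide sequence in one library. By this rule the family held 23189 of 218326 clonotype rows over 12 libraries. Of these, 34 of 165 lay in 4 baseline libraries and 23155 of 218161 in 8 libraries drawn after infusion. The post-infusion rows stood for 22046 distinct CDR3 sequences of 205011 in all. They were assigned to 8 of the 61 V genes that occurred, namely TRBV6-1 to TRBV6-8.

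A TRB chain is made by joining 1 V, 1 D and 1 J segment in the developing T cell, and CDR3 is the stretch across the joins that meets the peptide held by an MHC molecule. The V segment encodes the first bases of CDR3 and both other binding loops, so cells that share a V family share most of the chain outside CDR3. As background, TRBV6 is among the V families commonly used by mucosal-associated invariant T cells in primates, but the tables hold no alpha chain and no cell marker, so no cell type could be read from them.

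The study followed T cell clones in monkeys given apoptotic donor leukocytes (ADLs), donor white cells treated so as to die, with the aim of tracking donor-reactive clones. The 8 post-infusion libraries carried the names Amazo, Nebula and Rocket and came from blood mononuclear cells taken 2 days (day -5, n = 3), 3 days (day -4, n = 3) or 7 days (day 0, Nebula, n = 1) after a first infusion on day -7, or 2 days after a second on day +1 (day +3, Amazo, n = 1), the infusion days being those of the series text, while a legend of the study places the second infusion on day 0. Per the study's methods these were adult male, nondiabetic monkeys without a transplant, matched with the donor at 1 Mamu-DR allele and mismatched at MHC class I, and all had short-term immunosuppression with anti-CD40 (2C10R4), rapamycin, tocilizumab and etanercept, so infusion and drugs cannot be told apart. The 4 baseline libraries carried other animal names. The methods speak of sampling the infused monkeys both before and after ADLs, but no label ties a baseline library to one of those 3 names.

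Some libraries went against their names. Over TRBV6 clonotypes, the Morisita-Horn index (0 for no shared clonotype, 1 for the same clonotypes at the same shares) was 0.685 to 0.793 among Rocket day -5, Rocket day -4, Amazo day -5 and Amazo day +3, and 0.797 to 0.945 among the 3 Nebula libraries. The library labelled Amazo day -4 stood apart at 0.0443 with Amazo day -5 and at most 0.00154 with any other library. The Amazo day -5 and day -4 libraries shared 22 TRBV6 clonotypes, which held 0.968% of TRBV6 counts in the first and 8.84% in the second. The 8 libraries thus fell into 3 repertoires, called here the Rocket repertoire (4 libraries), the Nebula repertoire (3) and the Amazo day -4 library. Values without the Amazo name stand beside those that use it. Total counts ran from 42695 to 556954 after infusion and from 63 to 74 at baseline. Counts were not collapsed by molecule here, so every interval covers counting error only.

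The CDR3 sequences of the largest TRBV6 clonotypes are shown because the clone results turn on them. Each is read 5′ to 3′ from the first base of CDR3, named by its repertoire and its rank there (N for Nebula, R for Rocket, A for Amazo day -4), with capitals for the bases between the end assigned to V and the start assigned to J, which hold any D bases and any added bases.
Clone N1: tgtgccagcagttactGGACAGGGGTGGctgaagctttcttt
Clone N2: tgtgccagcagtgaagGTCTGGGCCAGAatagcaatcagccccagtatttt
Clone R1: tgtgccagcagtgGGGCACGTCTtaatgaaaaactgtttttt
Clone R2: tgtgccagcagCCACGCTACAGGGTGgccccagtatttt
Clone A1: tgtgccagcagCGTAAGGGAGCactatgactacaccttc
Clone A2: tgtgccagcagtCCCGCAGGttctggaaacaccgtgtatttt
Clone A3: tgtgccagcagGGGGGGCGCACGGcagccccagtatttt
Clone A4: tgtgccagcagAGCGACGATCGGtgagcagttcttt
Clone A5: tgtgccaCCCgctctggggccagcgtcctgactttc
The first pair were the largest TRBV6 clonotypes of the Nebula libraries, the next pair those of the Rocket repertoire, and the last 5 those of the Amazo day -4 library. All begin with tgtgcca, the V-encoded start. Past it they vary in the rest of the V-encoded part, in the capitals and in the J-encoded end.

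The TRBV6 share of counts was low in the Rocket repertoire and high in the other libraries. It was 3.51% in Rocket day -5, 4.78% in Rocket day -4, 4.86% in Amazo day -5 and 4.75% in Amazo day +3. It was 12.8% in Nebula day -5, 13.8% in Nebula day -4 and 13.3% in Nebula day 0. The Amazo day -4 library lay between, at 10.3% (95% Wilson interval 10.2% to 10.4%). TRBV6 was the largest V family by counts in the 3 Nebula libraries and second in Amazo day -4, and it ranked 8 to 12 in the Rocket repertoire.

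Counted by clonotypes, the family was more even across libraries. It took 8.15% to 9.30% of clonotypes in the Rocket repertoire, 11.02% to 12.7% in the Nebula libraries and 13.3% in Amazo day -4. In the Rocket repertoire the share of clonotypes was thus above the share of counts, with TRBV6 clonotypes averaging 14.1 counts in Rocket day -5 against 34.3 for those of the other V families. The medians there were 11 and 13 counts. Among clonotypes below 0.1% of their library, TRBV6 held 7.48% to 8.50% of counts in the Rocket repertoire and 10.5% to 12.2% in the other 4 libraries.

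**Figure D1:**
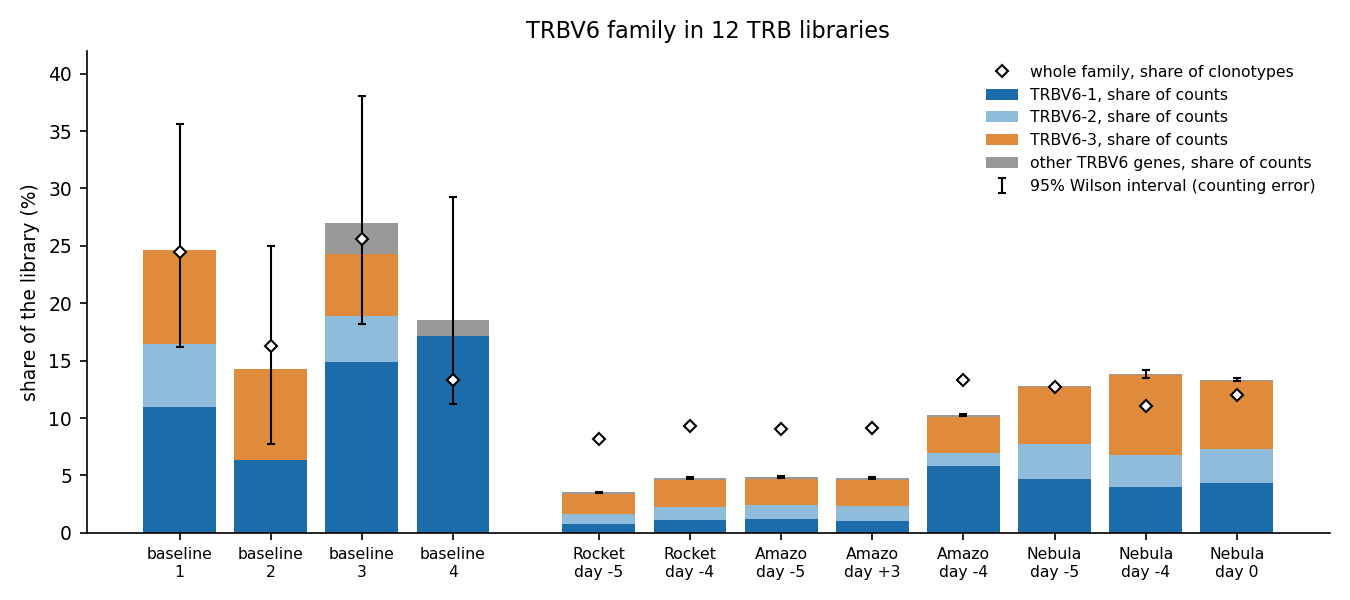
Bars give the TRBV6 share of counts (%) in each library, stacked by gene, with the 95% Wilson interval for the whole family, and diamonds give the family's share of clonotypes (%). The 4 libraries of the Rocket repertoire have bars of 3.51% to 4.86% under diamonds of 8.15% to 9.30%, and the Nebula and Amazo day -4 bars reach 10.3% to 13.8%.

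From day -5 to day -4 the share of counts was higher at day -4 in 3 of 3 names, at 7.07% ± 5.03 (SD, n = 3) and 9.62% ± 4.56 (SD, n = 3). The difference was 2.56 percentage points ± 2.46 (SD of the 3 differences), and the exact two-sided sign-flip test gave p = 0.25, the smallest that 3 pairs allow. Without the Amazo pair, whose libraries held different repertoires, the difference was 1.14 points. Over clonotypes under 0.1% of the library, an alternative chosen after the data had been seen, it was 1.45 points, higher in 2 of 3 names (exact sign-flip p = 0.5), with Nebula going from 11.4% to 10.5%. The share of clonotypes went from 9.95% ± 2.40 to 11.2% ± 2.00 (SD, n = 3), higher in 2 of 3 names (exact sign-flip p = 0.75). Without Amazo that difference was -0.253 points, the opposite direction.

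Baseline libraries had few counts behind their TRBV6 values. The family held 18, 9, 20 and 13 counts in 12, 7, 11 and 4 clonotypes, or 24.7%, 14.3%, 27.03% and 18.6% of counts in baseline libraries 1 to 4, and 3 counts were 4.05% to 4.76% of a library. The baseline mean of 21.1% ± 5.79 (SD, n = 4) was above the means at day -5 and at day -4, by 14.1 and 11.5 percentage points, with no overlap of the libraries. Each exact two-sided permutation test gave p = 0.0571, the smallest that 4 against 3 libraries allow. At day -5 the Amazo and Rocket libraries held 1 repertoire, so the 3 libraries there are not 3 independent units. At baseline 60% to 92.3% of TRBV6 counts had V hits tied between genes, against 0.551% to 2.90% after infusion. With tied hits left out of every library, the difference was -0.754 points at day -5 (exact permutation p = 0.971) and 2.09 points, the opposite direction, at day -4 (exact permutation p = 0.629). That filter dropped 60% to 92.3% of baseline TRBV6 counts but 20.4% to 27.3% of the other baseline counts. Of the tied baseline TRBV6 clonotypes, only 1, in baseline 1, was tied with a gene outside the family. With any V hit in TRBV6 counted, the differences were -15.4 and -12.9 points (exact permutation p = 0.0571 each). Animals, depth and treatment all changed with baseline and cannot be told apart.

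Within the family, TRBV6-1, TRBV6-2 and TRBV6-3 made up nearly all clonotypes, and their order differed between repertoires. In the Rocket repertoire TRBV6-3 led with 47.9% to 49.6% of TRBV6 clonotypes, followed by TRBV6-2 with 24.3% to 26.0% and TRBV6-1 with 19.2% to 20.9%. In the Nebula libraries TRBV6-1 led with 39.7% to 41.0%, followed by TRBV6-3 with 31.2% to 31.7% and TRBV6-2 with 25.8% to 27.5%. The Amazo day -4 library had 56.4% TRBV6-1, 29.0% TRBV6-3 and 9.80% TRBV6-2. The ranges of the 3 genes did not overlap within the Rocket repertoire or within the Nebula libraries.

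The Amazo day -5 and day -4 libraries, labelled as 1 animal, differed in this order. TRBV6-1 numbered 651 of 3164 TRBV6 clonotypes in the first and 1952 of 3460 in the second, and TRBV6-2 numbered 813 and 339. Amazo day -5 and Amazo day +3 lay close together, with TRBV6-1 at 20.6% and 20.9%.

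The other 5 genes were rare, and many of their assignments were tied with another gene. TRBV6-7 made up 3.28% to 5.90% of TRBV6 clonotypes in the Rocket repertoire and 3.44% in Amazo day -4, against 0.25% to 0.81% in the Nebula libraries. TRBV6-4 had 1 to 33 clonotypes a library, of which 66.7% to 100% were tied with another gene, and TRBV6-6 had 8 to 36. TRBV6-5 had at most 2 clonotypes and TRBV6-8 at most 3 in any library. Over the whole family 2.13% to 5.80% of post-infusion clonotypes had tied hits, and only 2 of these, both in Amazo day +3, were tied with a gene outside the family. In Nebula day -4 18.3% of TRBV6-2 clonotypes were tied, against 0% to 5.31% in the other 7 libraries.

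No TRBV6 gene passed the test between day -5 and day -4 (edgeR quasi-likelihood test over 57 V genes with the name as block). The background was the same, with 0% of V genes called higher and 0% lower. Of the 6 TRBV6 genes tested, 0 had an unadjusted p below 0.05, and DESeq2 called 0. TRBV6-1 took 1.16%, 4.71% and 0.751% of counts at day -5 in Amazo, Nebula and Rocket and 5.84%, 4.02% and 1.09% at day -4. Its log2 fold change was 0.77 ± 0.51 (SE, edgeR adjusted p = 0.627), and 0.09 ± 0.17 without Amazo. TRBV6-3 was higher at day -4 in each name, from 2.33%, 5.01% and 1.72% to 3.13%, 7.05% and 2.41%, with a log2 fold change of 0.38 ± 0.20 (SE, edgeR adjusted p = 0.627), and 0.43 ± 0.098 without Amazo. With each clonotype counted once, the TRBV6-3 log2 fold change was -0.00018 ± 0.13 (SE), and its share of clonotypes was 4.37%, 4.00% and 4.00% at day -5 and 3.85%, 3.49% and 4.61% at day -4. In Nebula, clone N1 was 37.6% of TRBV6-3 counts at day -5 and 57.8% at day -4. TRBV6-2 stood at 1.22%, 3.00% and 0.917% at day -5 and 1.11%, 2.72% and 1.13% at day -4.

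Against baseline, edgeR called 0 of 6 TRBV6 genes at day -5, where 16.1% of 56 V genes were called higher and 0% lower, and 0 of 4 at day -4, where 9.26% of 54 were called higher and 0% lower. TRBV6-1 was the only member with an unadjusted p below 0.05, at day -5, with 8, 4, 11 and 12 counts in the baseline libraries and a log2 fold change of -1.56 ± 0.72 (SE, edgeR adjusted p = 0.158), where the median of all V genes was 1.84. It was called lower with total-count scaling (-2.52, adjusted p = 0.0245), with DESeq2 (-2.04, adjusted p = 0.00700) and with edgeR without Nebula day -5 (-2.42, adjusted p = 2.54e-05). Of the 50 other V genes tested, 1, 1 and 2 were called lower in these fits, and 1, 9 and 13 higher. DESeq2 also called TRBV6-6 lower at day -5 and at day -4, on 2 counts in 1 baseline library. At day -4 it called 0 of the 50 other V genes lower and 2 higher. TRBV6-2 and TRBV6-3 had log2 fold changes of 0.41 ± 0.89 and 0.10 ± 0.77 at day -5, and both turned negative under total-count scaling (-0.56 and -0.86) and in DESeq2 (-0.07 and -0.29). The median of all V genes was also lower there, at 0.80 under total-count scaling and 0.56 in DESeq2.

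The largest TRBV6 clonotype was the same in all 3 Nebula libraries. Clone N1, a TRBV6-3 to TRBJ1-1 rearrangement with 12 bases between its V and J ends, was the largest clonotype of any V family in each of them. It held 8029 counts or 1.88% of Nebula day -5, 1738 counts or 4.07% of Nebula day -4 and 7305 counts or 2.83% of Nebula day 0. These were 14.7%, 29.4% and 21.2% of TRBV6 counts, and without it the family held 10.9%, 9.76% and 10.5% of those libraries. The second, clone N2 (TRBV6-2 to TRBJ1-5), had 1009, 155 and 460 counts, and was at 0 in every library outside the Nebula set. The next 3 of Nebula day -5 had 312, 275 and 249 counts there, and each was found in both other Nebula libraries and nowhere else.

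Over all 8 libraries, 2 of 22046 TRBV6 CDR3 sequences, clones N1 and A2, occurred in all 3 repertoires. In the other V families 38 of 183054 did. Clone N1 had 3 counts in Amazo day -4 and 2 in Rocket day -5, at or under the 3 counts taken as measurable, and 0 in the other 3 libraries of the Rocket repertoire. Clone A2 had 1 count in Nebula day -5, and 39 in Amazo day -5 and 1 in Amazo day +3 within the Rocket repertoire. Per the labels the libraries were sequenced as 1 pool, and the part of pooling in these few counts was not tested. By V gene, J gene and translated CDR3, over productive clonotypes (in frame, with no stop codon) of 1 library per repertoire, Nebula day -5 shared 8 TRBV6 clonotypes with Amazo day -4 (0.229% of those of Nebula day -5 and 0.2498% of those of Amazo day -4). It shared 10 with Rocket day -5 (0.286% and 0.818%), and Amazo day -4 shared 1 with Rocket day -5 (0.0312% and 0.0818%). The other V families shared 99 (0.424% and 0.496%), 106 (0.454% and 0.785%) and 80 (0.401% and 0.592%) in the same pairs.

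In the Rocket repertoire the largest TRBV6 clonotype was small and the same in all 4 libraries. Clone R1 (TRBV6-1 to TRBJ1-4) had 708 counts in Rocket day -5, 292 in Rocket day -4, 387 in Amazo day -5 and 383 in Amazo day +3, or 0.127%, 0.112%, 0.111% and 0.126%. It ranked 39 to 47 among all clonotypes there, and was at 0 in the Nebula libraries and in Amazo day -4. Clone R2 (TRBV6-3 to TRBJ1-5) came second in the family, at 0.08995%, 0.0990%, 0.0821% and 0.101% in the same order. Each kept within 1.3 times its own lowest share over the 4 libraries, across both names. The next 3 of Rocket day -5 varied more, with 405, 315 and 248 counts there, 102, 60 and 20 in Rocket day -4, 133, 81 and 30 in Amazo day -5 and 182, 139 and 69 in Amazo day +3.

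The Amazo day -4 library had a different set. Clone A1 (TRBV6-3 to TRBJ1-2) led with 836 counts, or 0.213%, and clone A2 (TRBV6-2 to TRBJ1-3) followed with 730 counts, or 0.186%. Of its 10 largest TRBV6 clonotypes, 6 were found in Amazo day -5, 1 in Amazo day +3, 1 in Nebula day -5 and 0 in either Rocket library. The traces in Amazo day -5 were small, 12 counts of clone A1, 39 of clone A2 and 12 of clone A3.

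**Figure D2:**
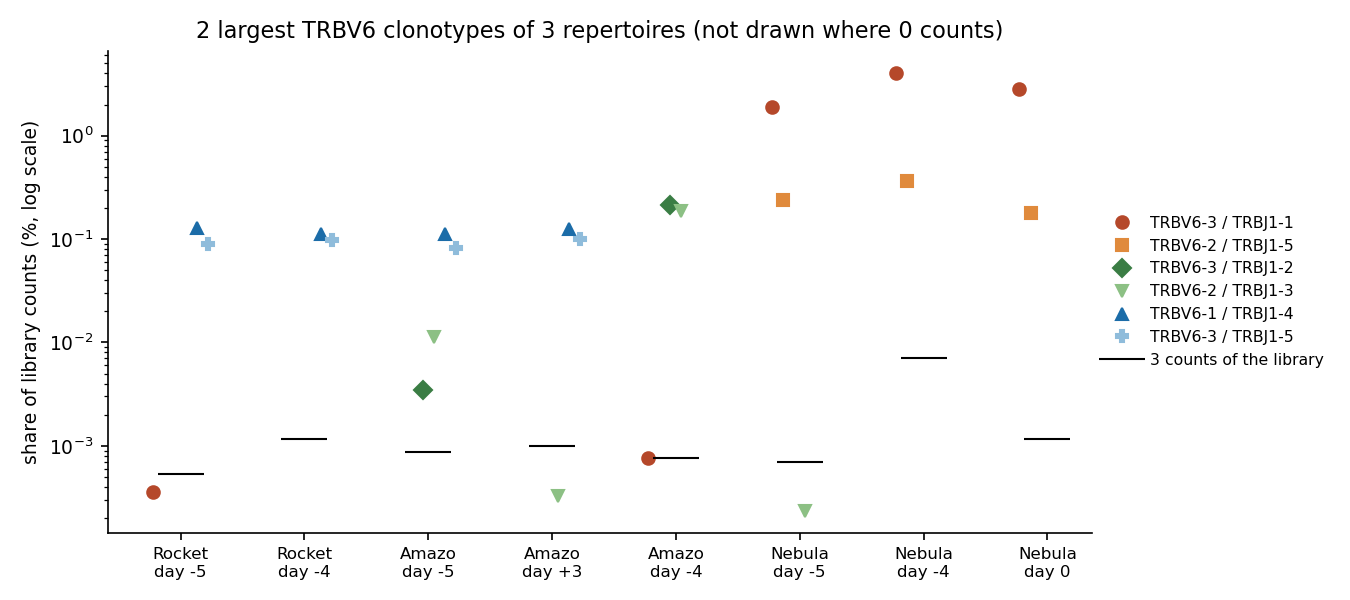
Points give the share of library counts (%, log scale) of the 2 largest TRBV6 clonotypes of each repertoire, named by V and J gene, and black dashes mark 3 counts. TRBV6-3 / TRBJ1-1 (clone N1) stands at 1.88% to 4.07% in the Nebula libraries, while TRBV6-1 / TRBJ1-4 (clone R1) stays at 0.111% to 0.127% in the 4 libraries of the Rocket repertoire.

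Clonotypes of 0.1% or more of either library were compared between libraries of 1 name by Fisher's exact test, called at an adjusted p below 0.05 and a 2-fold difference. The test compares 2 libraries and not conditions. Between Amazo day -5 and day -4, 5 of the 6 TRBV6 clonotypes tested were higher and 1 was lower, against a background of 42% called higher and 58% lower over 81 clonotypes. Direction followed the library through which a clonotype reached 0.1%. Chosen on day -4 alone, 5 of 5 were higher, and chosen on day -5 alone, 0 of 1 was higher and 1 was lower, so the fold values are a description. Clone A1 was 61.8-fold higher and clone A3 42.1-fold higher. Clone A4 and clone A5 went from 0 to 478 and 435 counts, which set against 3 counts in the earlier library is at least 141-fold higher for clone A4 and at least 129-fold higher for clone A5. Clone R1 went from 387 counts to 0, at least 145-fold lower on the same floor in the later library. All 81 clonotypes tested were called, so the TRBV6 share of calls did not stand apart.

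Between libraries of 1 repertoire, 1 TRBV6 clonotype was called in 4 comparisons. From Nebula day -5 to day -4, 1 of 2 was called, clone N1 at 2.16-fold higher (adjusted p = 1.88e-160, Fisher's exact test), where 8% of 25 clonotypes were called higher and 0% lower. From Nebula day -5 to day 0 it was 1.502-fold higher and clone N2 was 1.33-fold lower, and 0 of 2 were called (background 0% higher and 8.7% lower of 23). From Rocket day -5 to day -4, clone R1 was 1.13-fold lower and 0 of 1 was called (background 0% and 1.92% of 52). From Amazo day -5 to day +3, clone R2 and clone R1 were 1.23-fold and 1.14-fold higher and 0 of 2 were called (background 0% and 10.2% of 49). With no minimum fold 2 of 2, 2 of 2 and 1 of 2 were called in the Nebula day -4, Nebula day 0 and Amazo day +3 comparisons. The share called over all clonotypes was not computed at that setting, so these counts do not set TRBV6 apart.

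At a lower limit of 0.01% of either library, chosen after the data had been seen, more TRBV6 clonotypes could be compared. From Amazo day -5 to day -4, 50 of 69 were higher and 18 lower (background 59.5% and 40.3% of 746), and from Nebula day -5 to day -4, 59 of 112 were higher and 6 lower (background 53% and 6.28% of 1162). From Rocket day -5 to day -4, 3 of 23 were higher and 5 lower (background 7.18% and 26.2% of 362). From Nebula day -5 to day 0, 11 of 58 were higher and 24 lower (background 27.4% and 40.1% of 740), and from Amazo day -5 to day +3, 5 of 24 were higher and 7 lower (background 15.5% and 30.5% of 367). In Nebula day -4, the smallest post-infusion library, the 0.01% limit is near the 3 counts taken as measurable, which were 0.00703% of it.

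Large clonotypes were few in the family in the Rocket repertoire, relative to its share of clonotypes. Those of 0.1% or more of the library numbered 1 or 2 in each of the Rocket repertoire and Nebula libraries and 5 in Amazo day -4, while the other V families had 39 to 49 in the Rocket repertoire, 17 to 21 in the Nebula libraries and 29 in Amazo day -4. TRBV6 was thus 2.00% to 4.88% of the large clonotypes in the Rocket repertoire (8.15% to 9.30% of all clonotypes), 8.70% to 10.5% in the Nebula libraries (11.02% to 12.7% of all) and 14.7% in Amazo day -4 (13.3% of all). In the Rocket repertoire they held 2.28% to 4.79% of TRBV6 counts and 42.4% to 56.6% of the counts of the other V families. In the Nebula libraries the order was the opposite, with 16.5%, 32.1% and 22.6% of TRBV6 counts against 4.69%, 7.37% and 4.20%. Clone N1 alone was 14.7%, 29.4% and 21.2% of TRBV6 counts there. Clone N2, the other large TRBV6 clonotype of these libraries, was 1.85%, 2.62% and 1.34%, so the opposite order was carried by clone N1. In Amazo day -4, large clonotypes held 7.57% of TRBV6 counts against 23.8% of the rest. By name the difference of TRBV6 from the rest averaged -32.4 percentage points in Amazo, 18.3 in Nebula and -48.9 in Rocket, with a mean of -21.0 ± 35.0 (SD, n = 3, exact sign-flip p = 0.5). It was -15.3 without Amazo and -19.1 with 1 library per repertoire.

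**Figure D3:**
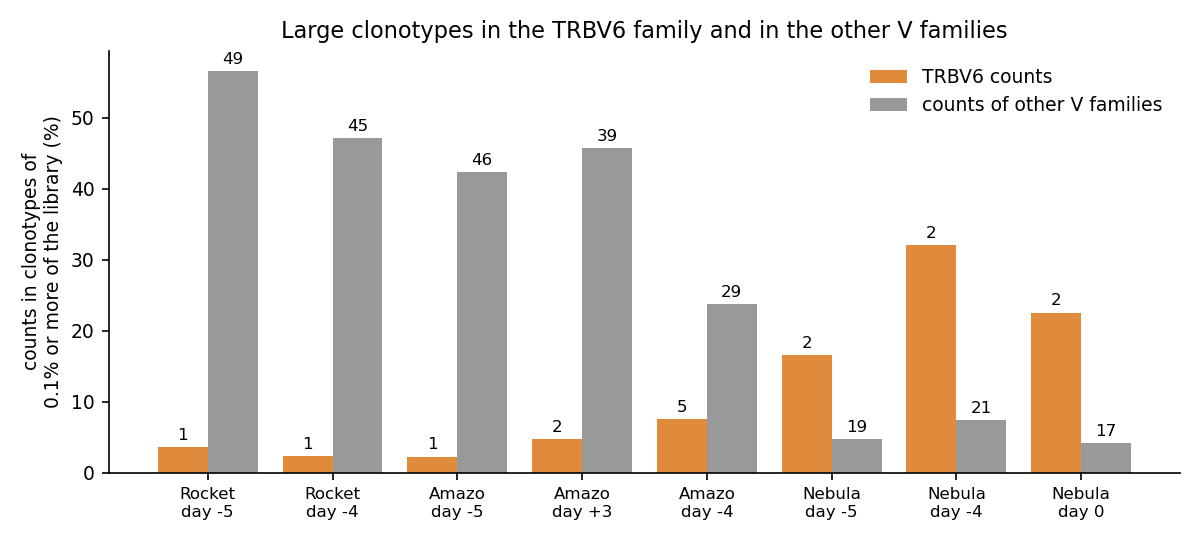
Bars give the share (%) of counts held by clonotypes of 0.1% or more of the library, for TRBV6 counts and for counts of the other V families, with the number of such clonotypes above each bar. Grey bars are taller in the Rocket repertoire and Amazo day -4, and orange bars in the 3 Nebula libraries.

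TRBV6 clonotypes used the TRBJ1 cluster, the J segments that lie with TRBD1, more often than the other V families did in every post-infusion library. TRBJ1 took 37.8% to 39.7% of TRBV6 clonotypes in the Rocket repertoire and Amazo day -4 and 44.9% to 47.5% in the Nebula libraries. The difference from the rest of the same library was 1.90 to 5.74 percentage points, in 8 of 8 libraries. The 8 libraries hold only 3 repertoires and the Amazo name spans more than 1. Neither libraries nor names are thus independent units, here and in the J gene, CDR3 and non-productive comparisons below. Averaged by name it was 3.25 in Amazo, 3.95 in Nebula and 2.49 in Rocket, with a mean of 3.23 ± 0.73 (SD, n = 3). The exact sign-flip test gave p = 0.25, the smallest that 3 names allow. The mean was 3.22 without Amazo and 2.72 with 1 library per repertoire. Weighted by counts it was 11.7 points (exact sign-flip p = 0.25), and uneven. By counts, TRBJ1 took 56.3% to 65.5% of TRBV6 in the Nebula libraries against 41.2% to 42.3% of the rest. Those libraries hold clone N1, a TRBJ1-1 rearrangement. The Rocket repertoire had 39.3% to 41.7% against 30.5% to 31.7%, and Amazo day -4 42.8% against 41.9%. The part of single large clonotypes in these values was not tested.

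Most of that difference lay in TRBJ1-2, which took 9.40% of TRBV6 clonotypes on average over the 8 libraries against 7.29% of the others, and was higher in 8 of 8. TRBJ1-6 was higher by 0.78 percentage points, in 7 of 8 libraries, and TRBJ1-5 by 0.43, in 6 of 8. TRBJ2-3 was lower by 1.14 points, in 7 of 8 libraries. TRBJ2-1 and TRBJ2-2 were lower by 0.82 and 0.65 points, each in 8 of 8. Each of these 6 J genes had an exact sign-flip p = 0.25 over names, and 0.464 adjusted over 13 J genes.

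The TRBJ1 difference was not even over the family. TRBV6-1 used TRBJ1 in 39.8% to 53.8% of clonotypes, above TRBV6-2, TRBV6-3 and the other V families in 8 of 8 libraries. TRBV6-3 was above the other V families in 7 of 8 libraries, by 2.00 percentage points on average, and TRBV6-2 in 3 of 8, with an average of -1.11. For TRBJ1-2 alone, TRBV6-1 and TRBV6-3 were above the other V families in 8 of 8 libraries and TRBV6-2 in 7 of 8.

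**Figure D4:**
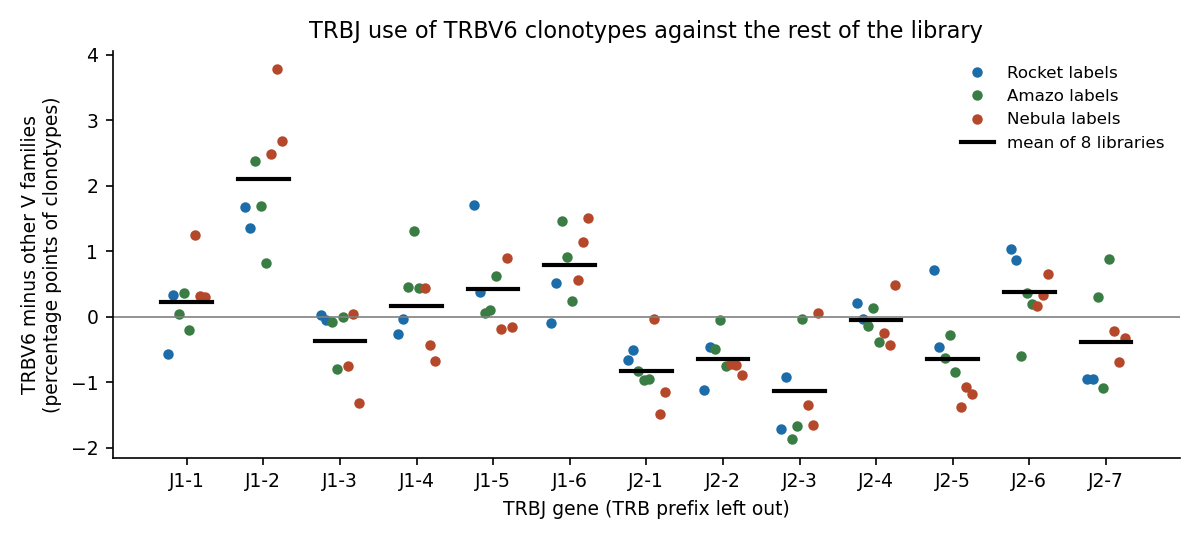
Each point is 1 post-infusion library, coloured by its labelled name, and gives the share of TRBV6 clonotypes with a J gene minus that of the other V families (percentage points), with a bar for the mean of 8 libraries. TRBJ1-2 lies above 0 in 8 of 8 libraries, with a mean of 2.10, and TRBJ2-1 and TRBJ2-2 lie below 0 in 8 of 8.

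Productive TRBV6 clonotypes, those in frame and without a stop codon in CDR3, had slightly short CDR3s. Their mean length was 14.2 to 14.3 amino acids in each library, against 14.4 to 14.6 for the other V families. The difference was -0.224 amino acids ± 0.038 (SD over 3 names, exact sign-flip p = 0.25) and was negative in 8 of 8 libraries, from -0.290 to -0.167. It was -0.223 without Amazo, -0.207 with 1 library per repertoire and -0.120 weighted by counts (exact sign-flip p = 0.25). At 12 amino acids the family had 8.50% to 10.1% of its clonotypes and the rest 6.42% to 7.51%, higher in 8 of 8 libraries. At 16 amino acids the family had 11.6% to 13.5% and the rest 13.4% to 15.3%, lower in 8 of 8.

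The V-encoded end was the part that differed in all libraries. TRBV6 clonotypes had 0.546 fewer V-derived bases in CDR3 than the others (mean over 3 names), with the same direction in 8 of 8 libraries. Germline V sequences were not used here, so trimming and germline length cannot be told apart. The bases between V and J differed by -0.079 and the J-derived bases by -0.047, each lower in 6 of 8 libraries. TRBV6-2 had the shortest V end of the 3 main genes in 8 of 8 libraries, at 12.2 to 12.3 bases, and shorter CDR3s than TRBV6-3 in 8 of 8, at 14.1 to 14.3 amino acids against 14.2 to 14.5.

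The 3 genes also differed in how CDR3 began. Of productive clonotypes, 24.0% to 28.8% of TRBV6-1 and 22.2% to 28.2% of TRBV6-2 began with cysteine, alanine, serine, serine and then glutamic acid, against 0.105% to 1.41% of TRBV6-3 and 3.26% to 4.52% of the other V families. The same start with tyrosine in place of glutamic acid was seen in 32.1% to 36.3% of TRBV6-3 clonotypes and under 1% of those of either other gene. Clone N1 and clone N2, shown above, carry these starts of TRBV6-3 and TRBV6-2. The starts were chosen after their values were seen.

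**Figure D5:**
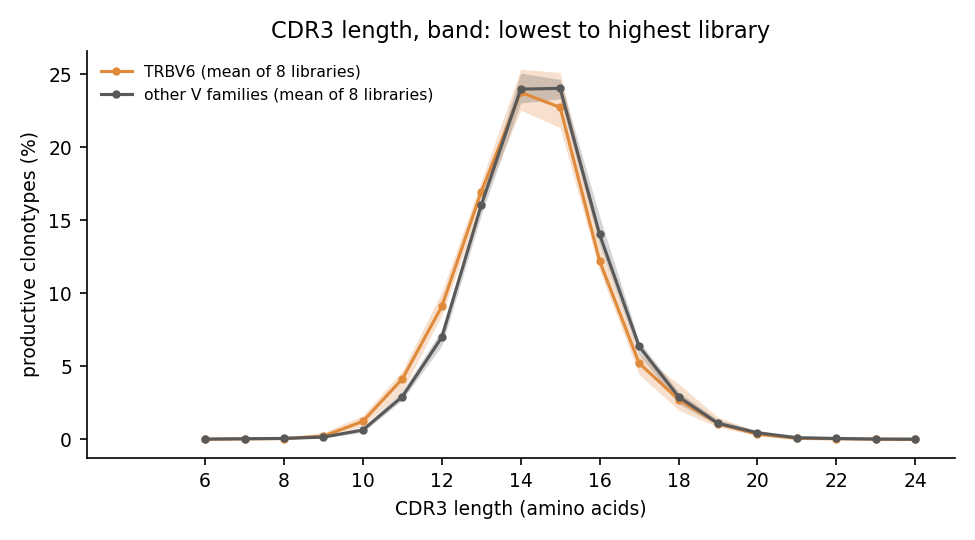
Lines give the mean share (%) of productive clonotypes at each CDR3 length (amino acids) over 8 post-infusion libraries for TRBV6 and the other V families, and bands run from the lowest to the highest library. The TRBV6 line is above the other at 12 amino acids (8.50% to 10.1% against 6.42% to 7.51%) and below it at 16.

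Non-productive clonotypes were fewer in the family than in the rest, by 2.26 percentage points ± 0.92 (SD over 3 names, exact sign-flip p = 0.25), with the same direction in 8 of 8 libraries. The difference was -2.22 points without Amazo, -2.59 with 1 library per repertoire and -0.897 weighted by counts (exact sign-flip p = 0.75), where the non-productive share of counts was higher in TRBV6 than in the rest in 4 of 8 libraries, the 4 of the Rocket repertoire. TRBV6-1 did not follow this pattern. In the Rocket repertoire 10.8% to 16.9% of TRBV6-1 clonotypes were non-productive, above the other V families in 4 of 4 libraries, and it ranked 4 to 8 from the top among V genes with at least 100 clonotypes. In the other 4 libraries 1.59% to 5.12% were, below the other V families in 4 of 4, with ranks of 35 to 40. The ranges for clonotypes of at least 2 counts were 10.6% to 15.9% and 0.419% to 3.56%. TRBV6-2 and TRBV6-3 were below the other V families in 8 of 8 libraries.

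Across the 8 post-infusion libraries the V families whose share of counts moved most like that of TRBV6 were TRBV10 (Pearson r = 0.98, Spearman rho = 0.93), TRBV23 (0.95 and 0.83) and TRBV16 (0.94 and 0.83), on the log2 scale. The 8 libraries hold only 3 repertoires and the shares of a library sum to a whole, so these values are a description.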

How the data were processed

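TRB transcripts were measured in 12 libraries of blood mononuclear cells. Per the labels, cDNA was made by template switching, the VDJ region was amplified and sequenced on a MiSeq, and the authors used Trimmomatic and then MiXCR with rhesus TRB segments as reference (versions and genome build not given in the sources used here). The deposited clone count is a whole, unnormalized number of sequences per clone, and the deposited clone fraction is that count divided by the total of the file, as it was in all 12 files. The methods mention molecular barcodes and a clone filter of 0.5%, but the tables had no barcode column and the post-infusion tables held clones of 1 count, so the deposited counts were taken unchanged. Amplified copies of 1 molecule are not independent.

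Members and lists were chosen with earlier results of these data known. V, D and J genes were first hits, tied where a row listed more than 1 V gene, and V and J ends came from the alignment positions in the files. Named were all TRBV6 genes, the largest TRBV6 clonotypes (1 per post-infusion library and 5 for 1 library per repertoire), up to 3 called clonotypes per direction and pair, the 3 J genes with the largest mean difference in each direction and the 3 V families most like TRBV6. Genome coordinates were not used here.

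Shares were compared by exact two-sided sign-flip tests over 3 names or exact two-sided permutation tests against baseline (smallest p 0.25 and 0.0571). Counts per V gene (at least 10 in at least 3 libraries) were tested with edgeR 4.0.16 in R 4.3.3 (quasi-likelihood, TMM, Benjamini-Hochberg over all V genes). Clonotypes were tested by Fisher's exact test, adjusted over all clonotypes tested in a pair. Pairing was by the animal name in the labels, and over 57 V genes the day -5 and day -4 deviations had correlations of 0.857 (Nebula), 0.933 (Rocket) and -0.114 (Amazo). Python 3.11.15, numpy 2.4.6, pandas 2.3.3, scipy 1.17.1, matplotlib 3.10.9 and DESeq2 1.42.0 were also used.

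On simulated data with 4-fold changes, edgeR recovered 71.5% of 200 changed genes between day -5 and day -4 (57 genes a draw, 10 false calls in 940), 16% from baseline to day -5 (56 genes) and 20% from baseline to day -4 (54 genes). The clonotype test recovered 20 of 20 with 0 false calls in 40 for each pair. Its simulated counts held counting error only, so this outcome was near certain and does not cover amplification or sampling differences between libraries. Alternatives were V hits without ties or in any place, at least 2 counts, productive clonotypes only, other scalings, DESeq2, no filter, each clonotype counted once, weighting by counts, clonotypes under 0.1% only and 1 library per repertoire, no block, other thresholds and folds, and leaving out each library or name.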

Additional observations from a re-analysis of the deposited data

Results flagged for a closer look

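The share of TRBV6 counts in clonotypes of 0.1% or more, minus that of the other V families, was -32.4 percentage points in Amazo, 18.3 in Nebula and -48.9 in Rocket. All 3 Nebula libraries lay above 0 and all 5 Amazo and Rocket libraries below it, and the difference between names was not tested. In Nebula day -5, day -4 and day 0 the difference was 11.8, 24.7 and 18.4 points. Clone N1 alone was 14.7%, 29.4% and 21.2% of TRBV6 counts there, more than the difference in each.

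In the baseline libraries TRBV6-6 was seen in baseline 3 alone, with 2 counts, and TRBV6-7 in baseline 4 alone, with 1 count. The gap of each to the other libraries equalled the whole range (a ratio of 1), because the other 3 were at 0. Any gene seen in a single baseline library is marked in this way, and both are below the 3 counts taken as measurable.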

How the results depend on the processing

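Of 138 alternatives over 16 results, 122 were marked the same, 14 moved and 2 reversed, and 7 results were the same under every alternative run. For shares and features, the same meant only that the sign was kept, whatever the size or p. For calls it meant a similar number called. The baseline to day -5 difference in the share of counts was thus marked the same at -0.754 points without tied V hits, against -14.1. The day -5 to day -4 difference in the share of clonotypes ranged from -0.253 to 2.72 percentage points with 1 name left out, negative without Amazo. That from baseline to day -4 in the share of counts became 2.09 points without tied V hits, which left out most baseline TRBV6 counts. TRBV6 genes called from baseline to day -5 rose from 0 to 1 with total-count scaling, to 2 in DESeq2 and to 1 without Nebula day -5 (range 0 to 1 with a library left out), and from baseline to day -4 to 1 in DESeq2. All these calls were lower, and of the 50 other V genes 1, 1, 2 and 0 were called lower in the same fits. The causes were not tested.

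Of TRBV6 clonotypes, 1 was called from Amazo day -5 to day -4 when clonotypes were chosen on the earlier library alone. With no minimum fold 2 were called for Nebula day -4, 2 for Nebula day 0 and 1 for Amazo day +3, and with 5-fold 0 were called for Nebula day -4. No share over all clonotypes was computed at these settings, so the counts do not set TRBV6 apart. At 0.01%, added after seeing the data, 68, 65, 8, 35 and 12 were called for Amazo day -4, Nebula day -4, Rocket day -4, Nebula day 0 and Amazo day +3. At 0.5% and 1% no TRBV6 clonotype was left outside the Nebula pairs. The no replicate block fit called 0 TRBV6 genes from day -5 to day -4, and without the pairing the exact permutation p of the share of counts was 0.6 (difference 2.56 points) and of clonotypes 0.5, so the block changed no call. The 3 names hold 3 repertoires that cross the labels, and baseline depth allows only coarse shares.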
